A study of Drosophila melanogaster with 9 samples.

Results

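The genes described here are those of the Drosophila melanogaster mitochondrial genome, taken as every gene whose FlyBase symbol starts with mt:. The annotation used here lists 38 such genes, of which 37 have a row in the count files, out of 17558 genes in all: 13 protein genes, 2 rRNA genes and 22 tRNA genes. The mitochondrial origin region, annotated as mt:ori, is the other one and has no value here. The members were taken by name and not by any measured value.

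Mitochondria keep a small circular genome that encodes core subunits of the respiratory chain complexes I, III and IV and of the ATP synthase (complex V), together with the rRNAs and tRNAs of the mitochondrial ribosome. Its RNAs are copied from both strands as long precursors, and tRNAs lying between the other genes mark where these are cut. The remaining subunits of the same complexes are nuclear genes. In the ovary, nurse cells and oocyte build up the large stock of mitochondria that the egg hands on, since the mitochondrial genome is inherited from the mother.

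RNA was sequenced from ovaries of females aged 3 days, 10 females per sample, raised at 25 °C, in 3 genotypes with 3 libraries each. In the mutant, the moe[NES] allele stood over the null allele moe[G0415]. The NES heterozygote carried moe[NES] over w[1118]. The label of the null heterozygote, w[1118]moe[G0415], has no slash and is read here as moe[G0415] over w[1118]. By its name w[1118] is an allele of the gene w, and the labels give no moe allele for that chromosome. Moe encodes Moesin, an actin-binding protein of the ERM family, and the series asks whether heat shock gene expression needs it. The labels do not say which strain was the mother in each cross, so nuclear genotype and mitochondrial genome cannot be told apart in these comparisons. Whether the 3 libraries of a genotype stem from independent crosses is not stated either, so p-values cover the spread between these samples alone, which may be technical.

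The libraries held 31784025 to 43588466 counts. The germline genes osk and orb, needed for oocyte patterning and mRNA translation, were at 1415 to 1991 and 375 to 549.9 CPM (counts per 1000000 counts of the library, scaled by TMM), and the 5 testis genes examined reached at most 0.212 CPM, as the ovary label implies. Moe itself was at 403, 385 and 440 CPM in the mutant, at 619, 769 and 692 CPM in the NES heterozygote, and at 357, 439 and 368 CPM in the null heterozygote. The gene w was at 37.2 to 42.8 CPM in the mutant, 0.296 to 1.78 CPM in the NES heterozygote and 21.2 to 36.4 CPM in the null heterozygote. The source of this difference was not tested. Eggshell and yolk genes, which mark late egg chambers, took 5.33%, 3.56% and 4.60% of counts in mutant replicates 1, 2 and 3 and 2.41%, 4.88% and 3.57% in those of the NES heterozygote. In the null heterozygote they took 0.879%, 4.53% and 1.07%, so its replicates 1 and 3 stood apart from the other 7 libraries. Tests against the null heterozygote, complex medians and spreads are given below with and without these libraries, and shares and ratios by library.

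Most mitochondrial counts came from 1 gene, mt:lrRNA, which encodes the RNA of the large mitochondrial ribosomal subunit (FBgn0013686, BDGP6.54 annotation, mitochondrial genome 12735 to 14058, minus strand). Over the 9 libraries mt:lrRNA made up 63.1% of mitochondrial counts. All 37 genes together took 3.38%, 3.82% and 3.59% of counts in the mutant, 3.81%, 3.80% and 4.23% in the NES heterozygote and 3.28%, 4.02% and 4.34% in the null heterozygote. The null heterozygote libraries held both the lowest and the highest of these shares, and the 3 groups overlapped. The 13 protein genes took 1.40%, 1.39% and 1.42% of counts in the mutant, 1.35%, 1.57% and 1.60% in the NES heterozygote and 1.05%, 1.59% and 1.24% in the null heterozygote. The mutant libraries lay close together and the null heterozygote libraries were spread around them. Wilson 95% intervals of the shares of single libraries were within 0.00683 percentage points for all members, which covers counting error only.

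Per length of gene, levels spanned more than 3 orders of magnitude. With each gene's CPM divided by its annotated length in kilobases, mt:lrRNA averaged 18130 ± 2200 CPM per kilobase (SD over 9 libraries). The cytochrome c oxidase (complex IV) genes came next, at 4546 ± 726 for mt:CoIII, 2935 ± 480 for mt:CoI and 1818 ± 387 CPM per kilobase for mt:CoII. mt:ATPase6, a membrane subunit of the ATP synthase, averaged 1654 ± 173 and mt:Cyt-b, the complex III subunit cytochrome b, 1577 ± 176 CPM per kilobase. These last 3 genes overlapped in range, whereas mt:CoIII was above mt:CoI and mt:CoI above mt:CoII in each of the 9 libraries.

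The complex I genes, which encode membrane subunits of NADH dehydrogenase, were lower per length than these 6 genes in the 9-library means. mt:ND1 averaged 559 ± 175, mt:ND3 425 ± 152, mt:ND4 376 ± 91.2 and mt:ND5 352 ± 93.07 CPM per kilobase. The lowest level of mt:Cyt-b in any library was above the highest of mt:ND1. A last set of genes was far lower, at 40.06 ± 7.85 CPM per kilobase for mt:ATPase8, 28.1 ± 15.8 for mt:ND2, 18.9 ± 4.95 for mt:srRNA, 11.9 ± 3.05 for mt:ND4L and 3.56 ± 1.45 for mt:ND6. The mean of mt:lrRNA was 960-fold that of mt:srRNA, the RNA of the small ribosomal subunit (14131 to 14916), and 5090-fold that of mt:ND6 (9971 to 10495).

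**Figure D1:**
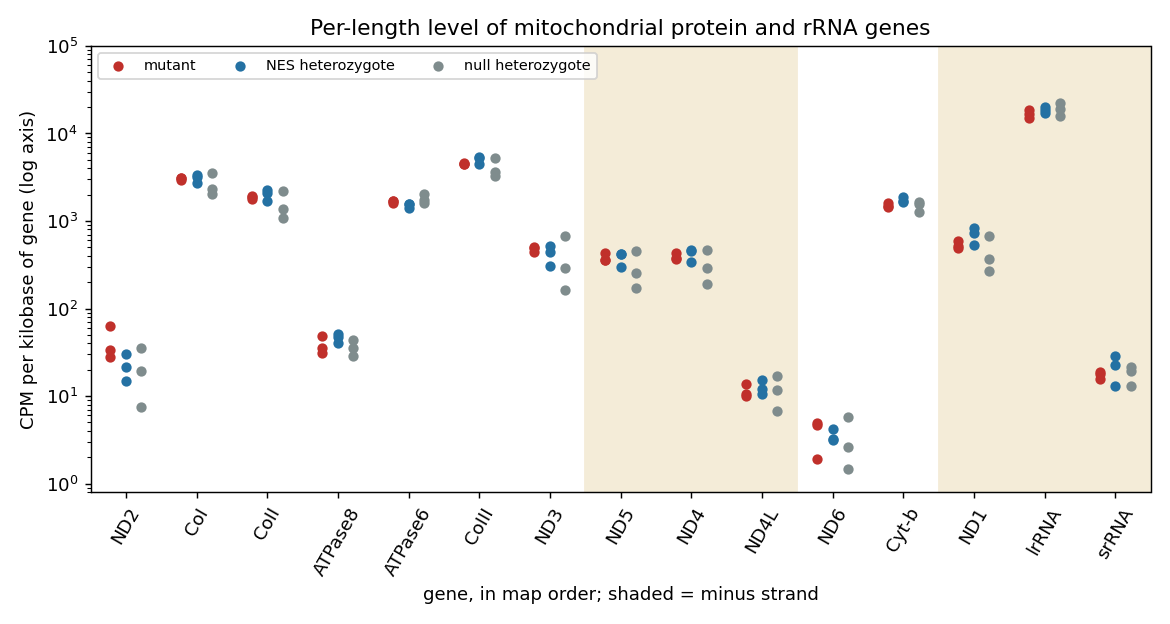
Level of each mitochondrial protein and rRNA gene in map order, in CPM per kilobase of gene on a log axis, with 1 point per library coloured by genotype and minus-strand genes shaded. mt:lrRNA is highest and mt:ND6 lowest, and the span between them is far wider than that between genotypes within a gene, while several genes of similar level overlap.

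Several of the low genes touch a neighbour on the same strand. mt:ATPase8 (3907 to 4068, 162 bases) overlaps mt:ATPase6 (4062 to 4736) by 7 bases, and mt:ND4L (9545 to 9835) overlaps mt:ND4 (8207 to 9545) by 1 base. mt:ATPase6 also shares 1 base with mt:CoIII (4736 to 5524), and mt:ND6 ends 3 bases before mt:Cyt-b (10499 to 11635). How the counting treated a read that touches both genes of such a pair is not given in the sources used here, so its part in the low counts of mt:ATPase8 and mt:ND4L was not tested.

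The tRNA genes were nearly empty. These genes are 62 to 72 bases long. Of the 22, 12 had 0 counts in all 9 libraries, which allows up to 0.0973 CPM in the shallowest library by a floor of 3 counts. The other 10 together had 196 counts, with at most 25 for any gene in a library. mt:tRNA:Tyr-GTA was the 1 tRNA gene that passed the count filter, with 7, 1 and 14 counts in the mutant, 8, 25 and 10 in the NES heterozygote and 1, 11 and 5 in the null heterozygote. Its groups overlapped in each comparison. The kit selects polyadenylated RNA, so counts of tRNAs and rRNAs are those of captured RNA, not of the cell's content.

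Among the tRNA genes, mt:tRNA:Arg-TCG (6062 to 6124, plus strand) was singled out after its values were seen. It had 0 counts in each mutant library, 2, 7 and 7 counts in the NES heterozygote and 0 counts in each null heterozygote library. With a floor of 3 counts set for the group at 0, the NES heterozygote level was 6.23-fold that of the mutant and 5.57-fold that of the null heterozygote. These ratios take the few NES heterozygote counts as exact, without their counting error, so they are not lower bounds. mt:tRNA:Arg-TCG did not pass the count filter. Without that filter edgeR gave adjusted p = 0.314 between the mutant and the NES heterozygote and adjusted p = 0.373 between the heterozygotes.

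Among protein and rRNA genes, the widest spreads between libraries were those of complex I genes, at 2.42-fold to 8.34-fold from lowest to highest. mt:ND3 (5608 to 5961) was at 178, 155 and 174 CPM in the mutant, at 108, 184 and 155 CPM in the NES heterozygote and at 58.1, 239.7 and 102 CPM in the null heterozygote. Null heterozygote replicates 1 and 2 were the lowest and the highest of the 9 libraries for this gene. mt:ND5 (6409 to 8125, minus strand) was at 617, 622 and 734 CPM in the mutant, at 516, 728 and 717 CPM in the NES heterozygote and at 296, 773 and 438 CPM in the null heterozygote. mt:ND4 was at 499, 496 and 577 CPM in the mutant, at 461, 608 and 622 CPM in the NES heterozygote and at 257, 619.8 and 392 CPM in the null heterozygote. mt:ND4 and mt:ND5 thus had the same low libraries, null heterozygote replicates 1 and 3, with NES heterozygote replicate 1 the next lowest for both.

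mt:ND1 (11721 to 12659, minus strand) was at 489, 465 and 556 CPM in the mutant, at 500.4, 781 and 693 CPM in the NES heterozygote and at 254, 635 and 349 CPM in the null heterozygote. mt:ND2 (240 to 1263) was at 34.3, 28.9 and 64.2 CPM in the mutant, at 15.2, 30.9 and 22.2 CPM in the NES heterozygote and at 7.70, 36.2 and 19.8 CPM in the null heterozygote. For mt:ND2, mutant replicate 3 was the highest library, 8.34-fold above null heterozygote replicate 1. mt:ND4L ranged over 1.98 to 4.96 CPM and mt:ND6 over 0.765 to 3.05 CPM, with the lowest and highest library in the null heterozygote for each. mt:ND6 had 29 to 106 counts per library, so counting error is part of its spread.

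The complex IV genes had the same low libraries, over a narrower range. mt:CoI (1474 to 3009), the catalytic subunit of cytochrome c oxidase, was at 4757, 4484 and 4817 CPM in the mutant, at 4222, 5203 and 4933 CPM in the NES heterozygote and at 3157, 5401 and 3600 CPM in the null heterozygote. mt:CoII (3083 to 3767), which carries the copper centre that accepts electrons from cytochrome c, was at 1297, 1218 and 1338 CPM in the mutant, at 1173, 1551 and 1435 CPM in the NES heterozygote and at 749, 1515 and 934 CPM in the null heterozygote. mt:CoIII was at 3662, 3557 and 3491 CPM in the mutant, at 3514, 4158 and 4289 CPM in the NES heterozygote and at 2591, 4137 and 2884 CPM in the null heterozygote. In all 3 genes null heterozygote replicates 1 and 3 were the lowest of the 9 libraries, and the mutant overlapped both heterozygotes in each.

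mt:Cyt-b was at 1627, 1809 and 1677 CPM in the mutant, at 1878, 1942 and 2125 CPM in the NES heterozygote and at 1434, 1883 and 1763 CPM in the null heterozygote. The 3 mutant libraries were below the 3 NES heterozygote libraries, while the null heterozygote overlapped both. This separation alone is common here: 11.4% of the 8642 genes tested had mutant libraries all below those of the NES heterozygote.

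mt:ATPase6 and the rRNA genes did not follow these libraries, and mt:ATPase8 did so in part. mt:ATPase6 was at 1130, 1155 and 1074 CPM in the mutant, at 955, 1057 and 1056 CPM in the NES heterozygote and at 1078, 1165 and 1379 CPM in the null heterozygote. The NES heterozygote libraries were below those of both other genotypes, and the highest library was null heterozygote replicate 3, which was among the lowest for complex I and IV genes. Such placing was found in 13.5% of genes for the mutant above the NES heterozygote and in 7.05% for the NES below the null heterozygote. mt:ATPase8 had 178 to 295 counts per library, at 5.70, 7.80 and 4.96 CPM in the mutant, 6.55, 7.61 and 8.22 CPM in the NES heterozygote and 4.69, 5.81 and 7.07 CPM in the null heterozygote. Its lowest library was null heterozygote replicate 1, but replicate 3 was above replicate 2.

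mt:lrRNA was at 20070, 24430 and 22130 CPM in the mutant, at 24270, 22980 and 26450 CPM in the NES heterozygote and at 21060, 25010 and 29660 CPM in the null heterozygote. mt:srRNA was at 14.6, 12.2 and 14.0 CPM in the mutant, at 10.4, 17.7 and 22.5 CPM in the NES heterozygote and at 15.1, 10.2 and 16.9 CPM in the null heterozygote. The groups overlapped for both rRNA genes, and the lowest libraries of these genes, mutant replicate 1 and null heterozygote replicate 2, were not those of the protein genes.

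**Figure D2:**
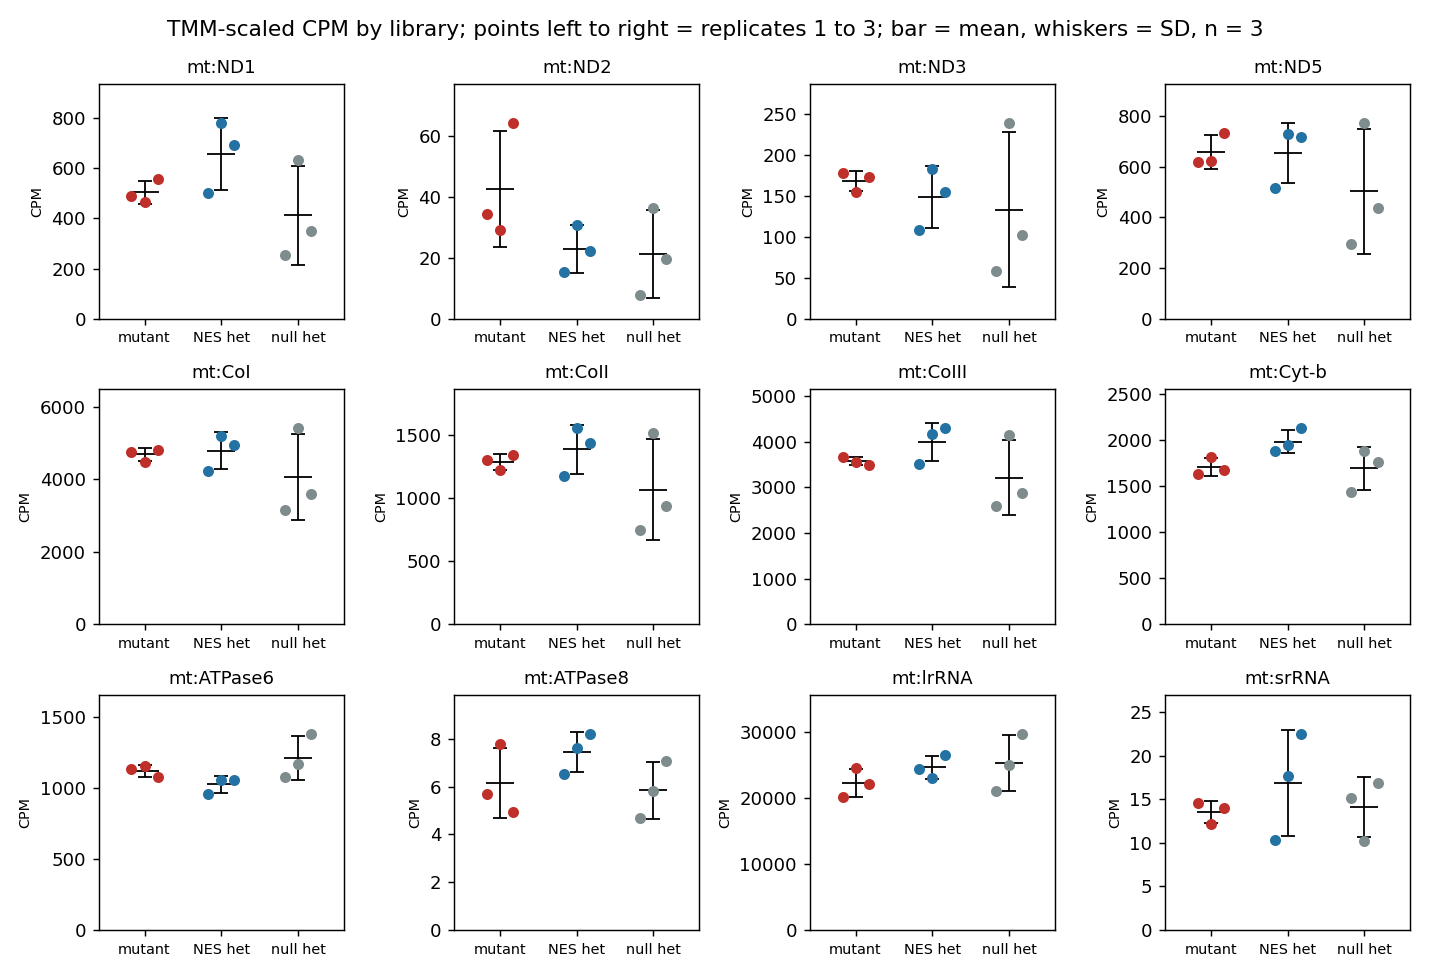
TMM-scaled CPM of 12 mitochondrial genes in each library, in panels with axes from 0; points are replicates 1 to 3 from left to right, bars are means and whiskers SD (n = 3). Among genotypes, the null heterozygote is spread widest for mt:ND1, mt:ND3, mt:ND5, mt:CoI, mt:CoII and mt:CoIII, with replicate 2 high and replicates 1 and 3 low. mt:ATPase6 and mt:lrRNA lack that arrangement of replicates.

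Seen across the genome, null heterozygote replicate 1 had the lowest level of 12 of the 13 protein genes. The exception was mt:ATPase6, lowest in NES heterozygote replicate 1. Within the null heterozygote, replicate 2 was 2.99-fold above the mean of replicates 1 and 3 for mt:ND3, 2.11-fold for mt:ND1 and mt:ND5, 1.60-fold for mt:CoI and 1.18-fold for mt:Cyt-b. For mt:ATPase6 and mt:lrRNA the same ratio was 0.948 and 0.986. The libraries of 1 genotype therefore differed more for complex I genes than the genotype means did.

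The 7 complex I genes took 5.31%, 4.61% and 5.75% of mitochondrial counts in the mutant, 4.27%, 5.96% and 5.21% in the NES heterozygote and 2.83%, 5.58% and 3.14% in the null heterozygote. This share does not depend on how libraries are scaled. Its 3 lowest libraries, null heterozygote replicates 1 and 3 and NES heterozygote replicate 1, were also the 3 lowest in eggshell and yolk genes, in the same order. For mt:lrRNA the share of mitochondrial counts was 58.4%, 63.6% and 60.4% in the mutant, 64.5%, 58.5% and 62.2% in the NES heterozygote and 68.01%, 60.4% and 71.4% in the null heterozygote, with the same 3 libraries highest.

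The complex IV genes took 28.3%, 24.1% and 26.3% of mitochondrial counts in the mutant, 23.7%, 27.8% and 25.06% in the NES heterozygote and 20.98%, 26.7% and 17.9% in the null heterozygote. Their 3 lowest libraries were the same as for complex I, with null heterozygote replicate 3 below replicate 1. mt:Cyt-b took 4.73%, 4.71% and 4.58% in the mutant, 4.99%, 4.95% and 4.997% in the NES heterozygote and 4.63%, 4.55% and 4.24% in the null heterozygote. The NES heterozygote libraries were above the other 6. The ATP synthase genes took 3.30%, 3.02% and 2.94% in the mutant, 2.56%, 2.71% and 2.50% in the NES heterozygote and 3.498%, 2.83% and 3.34% in the null heterozygote. Here the NES heterozygote libraries were below the other 6. Shares of 1 total move against each other, so these are descriptions with no test.

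The summed level of the 32 eggshell and yolk genes ranged over 35760 to 54250 CPM in the mutant, 23830 to 50430 CPM in the NES heterozygote and 8307 to 46670 CPM in the null heterozygote. The 5 follicle cell markers examined, none of them at 0 everywhere, summed to 190.1 to 258 CPM in the mutant, 103 to 209 CPM in the NES heterozygote and 72.4 to 237 CPM in the null heterozygote, of which tj alone gave 38.7 to 176.9 CPM. The 11 ovary sheath muscle markers, from a tissue rich in mitochondria, summed to 642 to 819.7 CPM in the mutant, 592 to 747 CPM in the NES heterozygote and 588 to 734 CPM in the null heterozygote, of which Tm1 alone gave 498 to 603 CPM. The other 10 summed to 121 to 224 CPM in the mutant, 76.8 to 144 CPM in the NES heterozygote and 84.0 to 162 CPM in the null heterozygote. All 11 had positive log2 fold changes in the mutant against either heterozygote, with medians of 0.469 against the NES and 0.602 against the null heterozygote. The same held for all 32 eggshell and yolk genes (medians 0.342 and 1.04) and all 5 follicle cell markers (0.59 and 0.832), so it was not particular to muscle. Of all genes tested, 49.6% and 50% had negative log2 fold changes in these comparisons. Of the 11 muscle markers, 0 were called, against 0.972% and 1.25% of all genes tested in these comparisons.

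The 5 germline markers summed to 2855 to 3324 CPM in the mutant, 2615 to 3184 CPM in the NES heterozygote and 2506 to 3380 CPM in the null heterozygote, of which osk alone gave 1415 to 1991 CPM. For the NES over the null heterozygote, 2 of them had positive and 3 negative log2 fold changes. Among these, aub averaged 127.5 CPM in the mutant, 120.5 CPM in the NES heterozygote and 135 CPM in the null heterozygote. In the same order bam averaged 32.19, 66.42 and 38.75 CPM. The 5 hemocyte markers summed to 78.3 to 133 CPM in the mutant, 61.7 to 114.9 CPM in the NES heterozygote and 31.06 to 98.1 CPM in the null heterozygote. Most of the hemocyte sum was 1 gene, srp, which averaged 102.5 CPM in the mutant, 88.04 CPM in the NES heterozygote and 50.9 CPM in the null heterozygote. Of the 5 hemocyte markers, 3 passed the count filter. The others that passed were Ppn, at 8.72, 2.587 and 3.182 CPM in the same order, and Hml, at 0.4261, 0.3486 and 0.3365 CPM. Between the heterozygotes, Ppn thus went the other way from srp. By summed level, null heterozygote replicates 1 and 3 and NES heterozygote replicate 1 were the 3 lowest libraries in each of these lists (eggshell and yolk, follicle, muscle, germline and hemocyte). The summed level of the 6 fat body markers lacked that arrangement. It was 194 to 240.1 CPM in the mutant, 137.5 to 185 CPM in the NES heterozygote and 152 to 258 CPM in the null heterozygote. Most of this sum was 1 gene, Col4a1, which averaged 177.7, 130.2 and 164.2 CPM in the same order. Of the 6 fat body markers, 3 passed the count filter, Col4a1, apolpp and Fbp2. Fbp2 averaged 0.5339, 0.009364 and 0.2548 CPM in that order. It was called for the mutant against the NES heterozygote (log2 fold change 5.374, edgeR adjusted p = 0.0351). The part of these cell types in the mitochondrial values was not tested. In these whole ovaries, fewer cells of a type and less RNA per cell cannot be told apart.

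**Figure D3:**
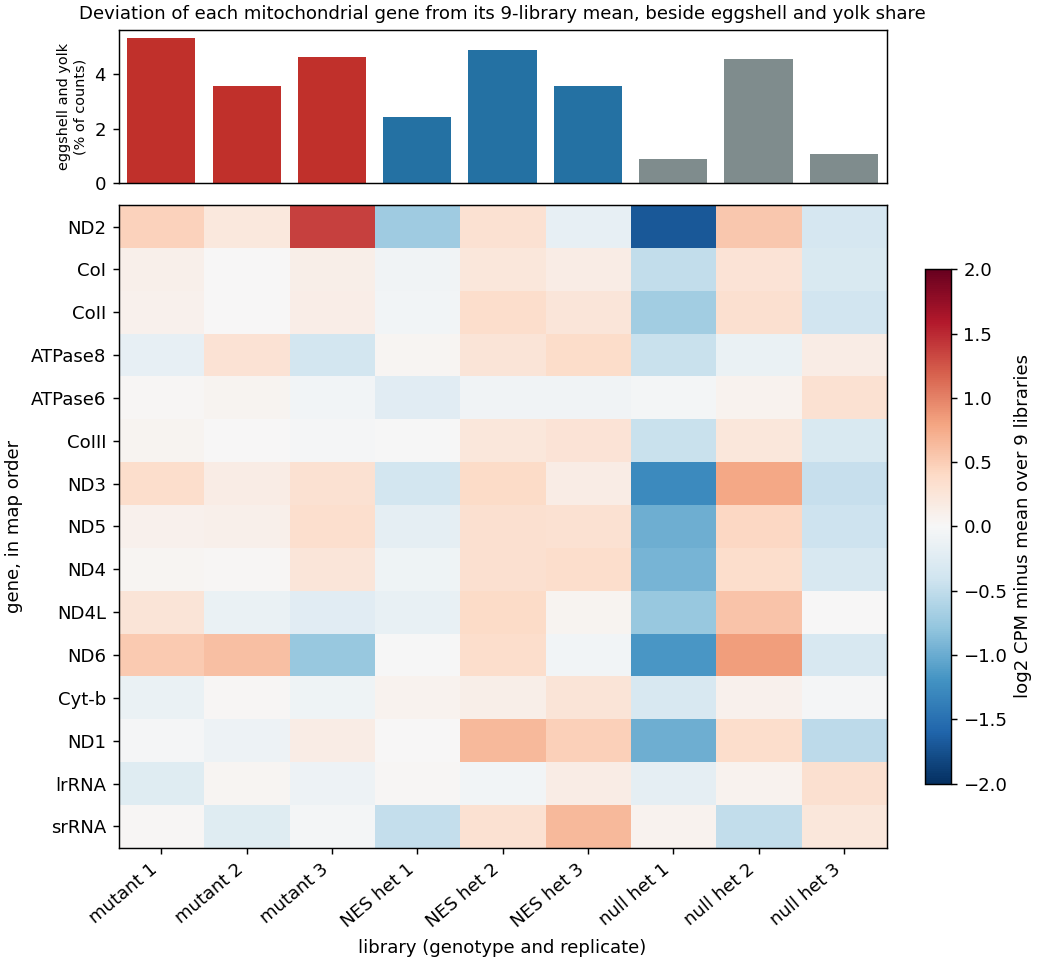
Colour shows the log2 CPM of each gene minus its mean over 9 libraries, with genes in map order and libraries in columns; bars above give the eggshell and yolk share of counts. Null heterozygote replicate 1, with the lowest bar, is below the mean for all 13 protein genes, from -1.69 for mt:ND2 to -0.04 for mt:ATPase6.

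For complexes I and IV, mitochondrial subunits were spread more widely between libraries than nuclear ones. The highest library was a median 3.08-fold above the lowest for the 7 mitochondrial complex I genes, beside 1.25-fold (1.13 to 1.60) for 32 nuclear complex I genes. For complex IV the medians were 1.71-fold for 3 mitochondrial genes and 1.35-fold (1.25 to 1.40) for 10 nuclear genes. mt:Cyt-b, at 1.48-fold, lay within the range of 8 nuclear complex III genes (1.14 to 1.55). In complex V, mt:ATPase6 at 1.44-fold and mt:ATPase8 at 1.75-fold were just above and above the 12 nuclear genes (1.17 to 1.43). The median over the 2338 genes tested with a mean of at least 100 CPM was 1.30-fold. Over the 8518 genes tested with counts in all 9 libraries it was 1.465-fold. mt:ND2, mt:ND4L, mt:ND6 and mt:ATPase8 averaged less than 100 CPM, so counting error weighs more in their spreads.

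A ratio of the highest to the lowest library cannot rise when libraries are left out, so a narrower spread was fixed in advance here. Over the 7 libraries other than null heterozygote replicates 1 and 3, the median was 1.72-fold (1.35 to 4.22) for mitochondrial and 1.18-fold (1.07 to 1.56) for nuclear complex I genes. For complex IV it was 1.28-fold for mitochondrial and 1.23-fold (1.17 to 1.40) for nuclear genes, and the mitochondrial genes, at 1.23 to 1.32, lay within the nuclear range. Over the same 7 libraries the median of the 2338 genes tested with a mean of at least 100 CPM was 1.24-fold. Setting null heterozygote replicates 1 and 3 aside here was chosen after seeing the data. Nuclear oxidative phosphorylation genes took 1.21%, 1.18% and 1.18% of counts in the mutant, 1.11%, 1.21% and 1.13% in the NES heterozygote and 1.09%, 1.25% and 1.08% in the null heterozygote. They were lowest in the same 3 libraries as the complex I share, over a narrower range. These figures are descriptions, with no test.

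Mutant and NES heterozygote share the moe[NES] allele and differ in the other chromosome, with moe[G0415] in the mutant and w[1118] in the heterozygote. No mitochondrial gene passed the threshold (adjusted p of 0.05 by edgeR's quasi-likelihood test over all genes), against 0.972% of the 8642 genes tested. That is 0 of 16 members, the 13 protein genes, the 2 rRNA genes and mt:tRNA:Tyr-GTA, and 0 had an unadjusted p under 0.05. DESeq2 called 0 as well, against 3.99% of all genes, with mt:Cyt-b alone under an unadjusted 0.05. Without null heterozygote replicate 2, which serves here only to estimate the spread, 0 members were called, against 2.93% of the genes then tested. The log2 fold changes of the 13 protein genes had a median of -0.105, beside 0.00168 over all genes tested, and 8 were negative. mt:Cyt-b was at 1704 ± 94.2 CPM in the mutant and 1981 ± 128 CPM in the NES heterozygote (SD, n = 3 each), a log2 fold change of -0.22 with an SE of 0.11 and an edgeR adjusted p of 0.4998. mt:ND1 had a log2 fold change of -0.39 (SE 0.31), mt:ND2 of 0.90 (SE 0.53), mt:lrRNA of -0.15 (SE 0.14) and mt:CoI of -0.03 (SE 0.19), none past the threshold.

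Mutant and null heterozygote share moe[G0415] and differ in the other chromosome, with moe[NES] in the mutant and w[1118] in the heterozygote. Again 0 of 16 members passed over all genes, by edgeR or DESeq2, against 1.25% of all genes by edgeR and 6.39% by DESeq2. At an unadjusted p under 0.05 there were 0 by edgeR and 1 by DESeq2. Of the 13 protein genes 11 had a positive log2 fold change, with a median of 0.238, beside 0.000227 over all genes tested. mt:CoI was at 4686 ± 178 CPM in the mutant and 4053 ± 1189 CPM in the null heterozygote (0.21, SE 0.19, edgeR adjusted p = 0.507). mt:ND5 was at 658 ± 66.1 and 502 ± 245 CPM in the mutant and the null heterozygote (0.39, SE 0.31), mt:ND2 had a log2 fold change of 1.01 (SE 0.53) and mt:lrRNA one of -0.18 (SE 0.14). For all 16 members the groups overlapped, whereas 18.4% of all genes had groups apart.

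This result depended on null heterozygote replicate 2. Without it, 8 members were called, all higher in the mutant: mt:CoI (0.47), mt:CoII (0.61), mt:CoIII (0.38), mt:ND1 (0.74), mt:ND2 (1.63), mt:ND3 (1.07), mt:ND4 (0.69) and mt:ND5 (0.84), with edgeR adjusted p of 0.0101 to 0.0282. In that setting 17 members were tested, and 20.8% of the 8840 genes tested were called higher in the mutant (41.6% in either direction). The null heterozygote libraries then left, replicates 1 and 3, are those poor in eggshell transcripts. Without these 2 libraries, with n = 1 in that group and the spread taken from the other genotypes, 0 members were called and the log2 fold change of mt:CoI was -0.22 and that of mt:ND3 -0.52. The direction for most complex I and IV genes turned on which null heterozygote libraries were used.

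The heterozygotes share w[1118] and differ in their moe allele. Between them 0 of 16 members passed, against 0.833% of all genes tested. DESeq2 called 0, against 3.95% of all genes, with 3 members, mt:ATPase6, mt:ND1 and mt:Cyt-b, under an unadjusted 0.05. Log2 fold changes of the NES over the null heterozygote were positive for 12 of the 13 protein genes, with a median of 0.24, beside -0.0026 over all genes. The exception was mt:ATPase6, at 1023 ± 58.7 CPM in the NES heterozygote and 1207 ± 155 CPM in the null heterozygote (-0.24, SE 0.10, edgeR adjusted p = 0.464). It was the 1 member with an unadjusted p under 0.05 by edgeR. mt:ND1 was at 658 ± 143 and 412 ± 198 CPM in the NES and the null heterozygote (0.67, SE 0.31, edgeR adjusted p = 0.553), and mt:CoIII was at 3987 ± 414 and 3204 ± 821 CPM (0.32, SE 0.17). Without null heterozygote replicate 2, 6 of 17 members were called, all higher in the NES heterozygote, namely mt:CoI, mt:CoII, mt:CoIII, mt:ND1, mt:ND4 and mt:ND5, against 5.96% of all genes called higher and 8.38% called in either direction. Without replicates 1 and 3, 0 members were called and the log2 fold change of mt:CoI was -0.18. The 3 comparisons share libraries pairwise and are not independent of each other.

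**Figure D4:**
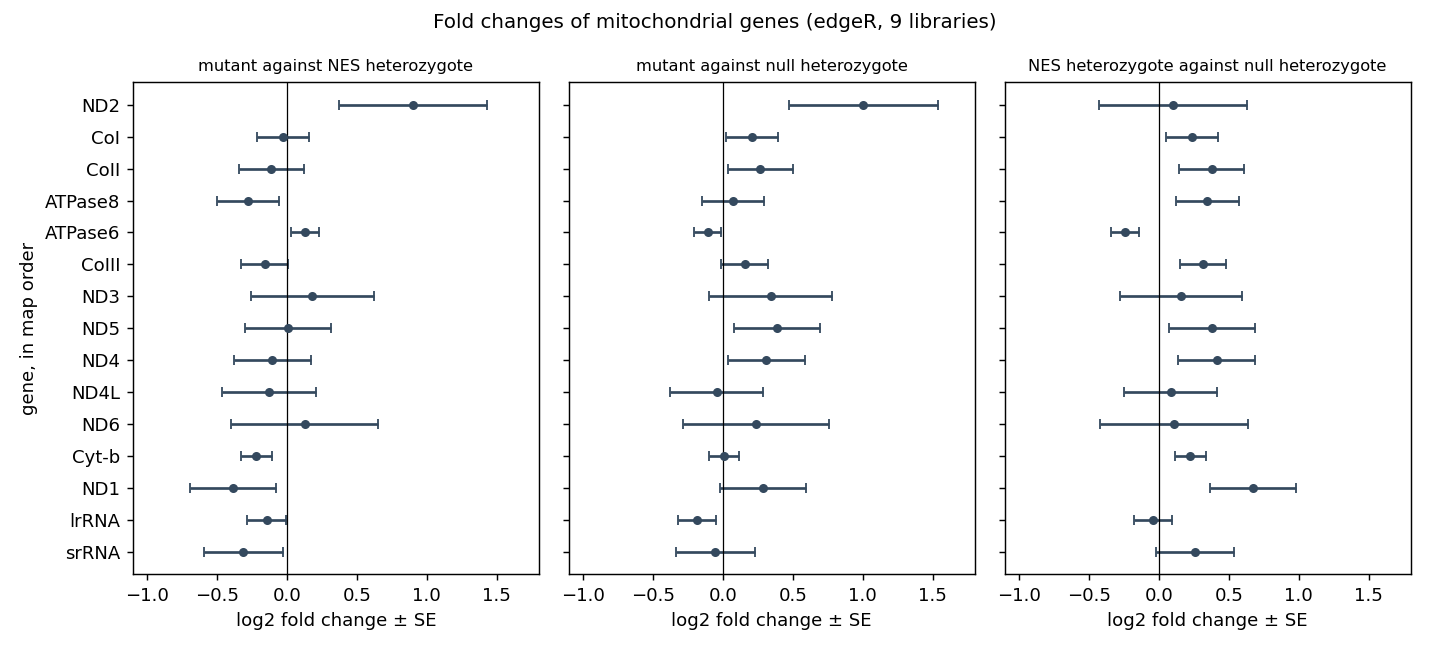
Log2 fold changes of the 15 mitochondrial protein and rRNA genes in the 3 comparisons, as points with whiskers of 1 SE, genes in map order from top to bottom. The widest whiskers are those of mt:ND2, mt:ND6 and mt:ND3, most protein genes are right of 0 in the comparisons with the null heterozygote, and no gene passes the threshold in any panel.

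Ratios between neighbouring genes on the same strand remove library scaling. Protein and rRNA genes fall into 4 runs of one strand: mt:ND2 to mt:ND3 on the plus strand, mt:ND4L to mt:ND5 on the minus strand, mt:ND6 and mt:Cyt-b on the plus strand, and mt:srRNA, mt:lrRNA and mt:ND1 on the minus strand. They give 11 neighbouring pairs. The most stable pair was mt:ND4 and mt:ND5, whose count ratio varied 1.14-fold over the 9 libraries. mt:CoI and mt:CoII varied 1.26-fold. The widest was mt:ND2 and mt:CoI, at 5.47-fold. Without null heterozygote replicates 1 and 3 these values were 1.14, 1.097 and 3.695, and leaving libraries out cannot raise them.

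For mt:CoIII over mt:ATPase6, which share 1 base, the ratio was 3.24, 3.08 and 3.25 in the mutant, 3.68, 3.93 and 4.06 in the NES heterozygote and 2.40, 3.55 and 2.09 in the null heterozygote. All 3 NES heterozygote libraries were above the other 6. For mt:ND5 over mt:ND4 it was 1.24, 1.26 and 1.27 in the mutant, 1.12, 1.197 and 1.15 in the NES heterozygote and 1.15, 1.25 and 1.12 in the null heterozygote. For mt:CoII over mt:CoI it was 0.2727, 0.2717 and 0.2777 in the mutant, 0.2778, 0.298 and 0.291 in the NES heterozygote and 0.237, 0.2804 and 0.259 in the null heterozygote. The mutant libraries were above those of the NES heterozygote for the first of these last 2 ratios and below them for the second.

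In all, 5 of the 11 ratios had groups apart between the mutant and the NES heterozygote, 0 between the mutant and the null heterozygote and 3 between the NES and the null heterozygote. Some margins were thin. For mt:CoII over mt:CoI, mutant replicate 3 was at 0.2777 and NES heterozygote replicate 1 at 0.2778. For mt:ATPase8 over mt:ATPase6, mutant replicate 2 was at 0.00675 and NES heterozygote replicate 1 at 0.00685. The counting error of the ratios was not estimated. Among single genes, by CPM and not by ratio, 24.9%, 18.4% and 13.3% of those tested had groups apart in these comparisons. Pairs share genes, so the 11 are not independent, and with 3 libraries against 3 an exact permutation test could not pass the threshold for a single ratio, so none was run. For mt:lrRNA and mt:ND1, neighbours on the minus strand, mt:lrRNA had 29.4 to 85.1 times the counts of mt:ND1, and the ratio varied 2.89-fold between libraries, and 1.79-fold without null heterozygote replicates 1 and 3.

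**Figure D5:**
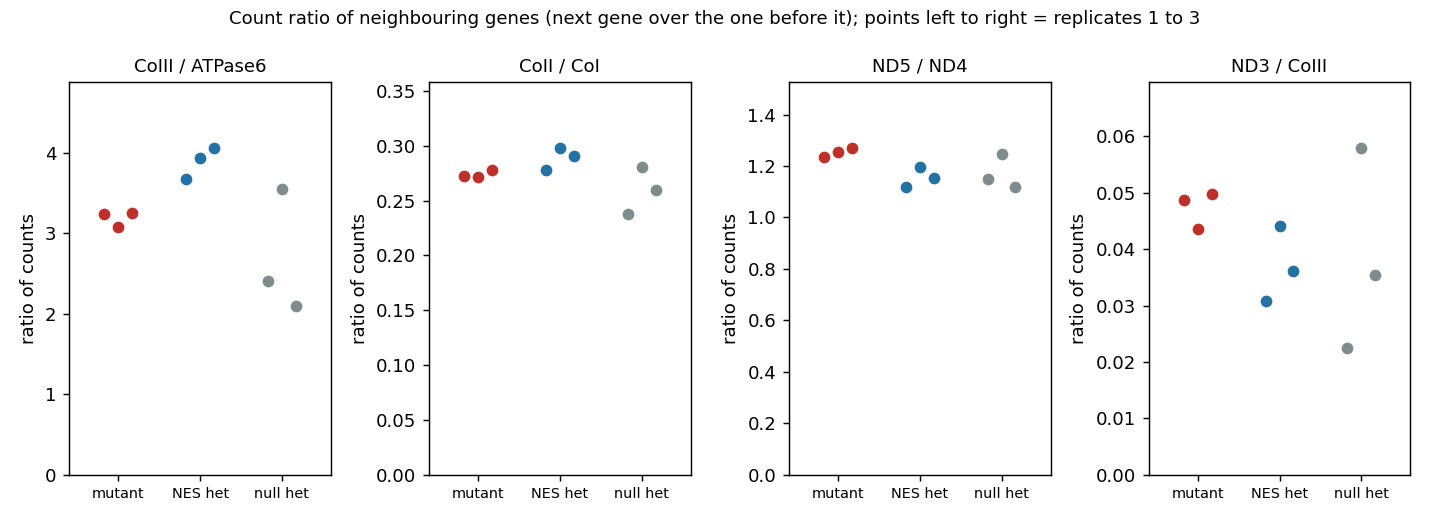
Count ratios of 4 neighbouring gene pairs in each library, with axes from 0 and points for replicates 1 to 3 from left to right in each genotype. For mt:CoIII over mt:ATPase6 the 3 NES heterozygote points are above all others, while mt:ND3 over mt:CoIII is spread widest in the null heterozygote.

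Nuclear genes that act with the mitochondrial genome held 0 called members in each list and each comparison. Of all genes tested, 0.972% were called for the mutant against the NES heterozygote, 1.25% for the mutant against the null heterozygote and 0.833% between the heterozygotes. At such shares, lists of this size would hold few calls or none. In the mutant against the null heterozygote, median log2 fold changes were 0.31 for the 7 mitochondrial and 0.092 for the 32 nuclear complex I genes. For complex IV they were 0.21 for the 3 mitochondrial and 0.114 for the 10 nuclear genes. Without null heterozygote replicate 2 these medians were 0.84 and 0.189 for complex I and 0.47 and 0.225 for complex IV, mitochondrial before nuclear. Without null heterozygote replicates 1 and 3 all 4 were negative, at -0.345 and -0.0875 for complex I and -0.22 and -0.13 for complex IV. In the mutant against the NES heterozygote they were 0.009 and 0.053 for complex I and -0.11 and 0.062 for complex IV, mitochondrial before nuclear. mt:Cyt-b, the 1 mitochondrial complex III gene, stood at -0.22 beside a median of 0.046 for 8 nuclear complex III genes in that comparison, and the 2 mitochondrial ATP synthase genes had a median of -0.073 beside 0.046 for 12 nuclear ones. No difference between mitochondrial and nuclear subunits was tested.

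The lists of mitochondrial transcription genes (6 tested), mitochondrial RNA processing and stability genes (9 tested) and mitochondrial DNA maintenance genes (5 tested) had medians of 0.058, 0.0303 and -0.0572 in the mutant against the NES heterozygote. Against the null heterozygote the mutant's medians were 0.0381, 0.0318 and -0.0574. The 70 mitochondrial ribosomal protein genes tested, whose products assemble with the 2 rRNAs, had medians of 0.0207 and -0.00962 in these comparisons. Between the heterozygotes, NES over null, they were -0.0376, -0.0235, -0.0244 and -0.0385 for the same 4 lists. The 16 mitochondrial aminoacyl-tRNA synthetase genes and 12 mitochondrial translation factor genes tested had medians between -0.06 and 0.0347 over the 3 comparisons.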

How the data were processed

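Each library has 1 table of counts, which the authors deposited as whole numbers per gene, not normalized. Libraries were made with a stranded mRNA kit and sequenced on an Illumina instrument, per the labels' protocols. HISAT2 2.0.4, HTSeq, Trimmomatic 0.36, SAMtools 0.1.19 and FastQC are listed without roles, with the build BDGP6, per the submitters' processing notes. The sources used here name neither the annotation release nor the strand setting, nor how reads that match several places or touch 2 genes were counted, so levels of overlapping genes, and of genes with near-identical copies elsewhere, are uncertain. Symbols, lengths and coordinates came from the Ensembl BDGP6.54 annotation, a later release of that build; 17252 of 17558 identifiers matched it. The files held 0 entries that name no gene.

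The analysis used edgeR 4.0.16 in R 4.3.3. filterByExpr (minimum count 10, minimum total 15) kept 8642 genes, libraries were scaled by TMM, and 1 quasi-likelihood model with a coefficient for each genotype covered the 9 libraries. P-values were adjusted by Benjamini-Hochberg over all genes tested and called at 0.05. The common dispersion was 0.0403. Standard errors come from dividing the size of a log2 fold change by the root of its F statistic. The procedure was also run on simulated counts, with the common dispersion for every gene and no effect shared by the genes of a library beyond its depth. These data differ from that, so the simulation is not used as support here. Replicates were compared for duplicates, and chi-square per degree of freedom was 16.7 or more, so each library counts once. Every mitochondrial protein and rRNA gene is named; of the tRNA genes only those singled out in the text are. Alternatives were DESeq2 1.42.0, other scalings and filters, fits with fewer genotypes, the replicate number as a block, and libraries left out. The members, lists and alternatives were chosen with earlier results of these data known.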

Additional observations from a re-analysis of the deposited data

How the results depend on the processing

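Under 19 alternative settings, 0 mitochondrial genes were called for the mutant against the NES heterozygote in any, and leaving out single libraries gave 0 to 8 called for the mutant against the null and 0 to 6 between the heterozygotes, all these calls coming without null heterozygote replicate 2. Of 849 log2 fold changes of named members recomputed, 781 kept direction and side of the threshold, 14 passed it, all without that library, and 54 changed sign. Without null heterozygote replicates 1 and 3 the sign changed for the mutant against the null heterozygote in mt:CoI (-0.22), mt:CoII (-0.25), mt:CoIII (-0.22), mt:Cyt-b (-0.16), mt:ND1 (-0.345), mt:ND3 (-0.52), mt:ND4 (-0.25), mt:ND5 (-0.24), mt:ND6 (-0.60) and mt:srRNA (0.40). In the same setting it changed between the heterozygotes, NES over null, in mt:CoI (-0.18), mt:CoII (-0.14), mt:CoIII (-0.0623), mt:ND2 (-0.68), mt:ND3 (-0.70), mt:ND4 (-0.15), mt:ND4L (-0.46), mt:ND5 (-0.25) and mt:ND6 (-0.73). For the mutant against the null heterozygote, mt:Cyt-b was at -0.0423 with library size alone and mt:ND4L at 0.0334 with the replicate block.

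With single libraries left out, log2 fold changes that changed sign for the mutant against the NES heterozygote ranged over -0.11 to 0.0318 for mt:CoI, -0.00022 to 0.36 for mt:ND3, -0.29 to 0.024 for mt:ND4L, -0.13 to 0.0915 for mt:ND5 and -0.0895 to 0.45 for mt:ND6. Against the null heterozygote the mutant's ranged over -0.14 to 0.22 for mt:ATPase8, -0.11 to 0.0897 for mt:Cyt-b, -0.0267 to 1.07 for mt:ND3, -0.33 to 0.31 for mt:ND4L, -0.13 to 0.92 for mt:ND6 and -0.24 to 0.0903 for mt:srRNA. Between the heterozygotes, NES over null, they ranged over -0.30 to 0.73 for mt:ND2, -0.21 to 0.89 for mt:ND3, -0.20 to 0.44 for mt:ND4L, -0.25 to 0.79 for mt:ND6, -0.16 to 0.0849 for mt:lrRNA and -0.0094 to 0.50 for mt:srRNA.

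Over all genes, calls numbered 84, 108 and 72 for the mutant against the NES heterozygote, the mutant against the null heterozygote and the NES against the null heterozygote. They were 345, 552 and 341 by DESeq2, 27, 61 and 33 with a mean of at least 5 CPM, and 145, 51 and 24 with the compared genotypes alone. Leaving out single libraries gave 28 to 259, 26 to 3679 and 35 to 741, the highest each time without null heterozygote replicate 2. Without null heterozygote replicates 1 and 3, calls were 19 for the mutant and 32 for the NES heterozygote, each against the null heterozygote. With the replicate block they were 34, 59 and 38; same-numbered libraries had deviations correlated at -0.452 to 0.48, so the numbers were not taken to pair them. The cause of these shifts was not tested.

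Without rRNA genes the mitochondrial share of counts averaged 1.41% in the mutant, 1.51% in the NES heterozygote and 1.29% in the null heterozygote, against 3.60%, 3.95% and 3.88% with them. Without null heterozygote replicates 1 and 3, an alternative chosen after seeing the data, the median log2 fold changes of the mutant against the null heterozygote changed sign for complex I (-0.345 mitochondrial, -0.0875 nuclear) and complex IV (-0.22 and -0.13). Of protein gene counts alone, complex I genes took 13.3%, 13.4% and 11.3% in the same order. mt:ND4L and mt:ND6 have no value with a mean of at least 5 CPM. Depth limits mt:ND6, mt:ND4L and the tRNA genes, whose counts are few.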
